A study of Sus scrofa with 23 samples.

Results

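The genes described here encode the extracellular matrix of the kidney cortex: the fibrillar collagens, the components of basement membranes, the collagens and glycoproteins that connect them, and the enzymes and inhibitors that remodel them. They were taken as a list of 44 gene symbols grouped by function. Of these, 43 were found in the table that assigns transcripts to genes, out of 26687 genes and 77689 transcripts in all. COL6A1, which encodes a chain of type VI collagen, was not found by its symbol. The 43 genes fell into 5 fibrillar collagens, 19 basement membrane genes, 4 type VI and fibril-associated collagens, 5 interstitial glycoproteins and elastic fibre genes, 3 small leucine-rich proteoglycans and 7 remodelling enzymes and inhibitors. All 43 passed the filter on low counts, so none was lost from the tests, which covered 20921 genes.

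Fibrillar collagens are secreted as triple helices, are trimmed and cross-linked outside the cell, and form the rope-like fibres of the interstitium. Basement membranes are thin sheets in which a network of laminins and a network of type IV collagen are joined by nidogens and perlecan. In the kidney they lie under every tubule and, in a specialised form built from other type IV chains, between the endothelium and the podocytes of the glomerulus. Metalloproteinases cut these networks, and tissue inhibitors of metalloproteinases (TIMPs) block the cutting.

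RNA was measured by RNA-Seq of the kidney cortex of 23 newborn pigs, whose tissue was taken within hours of birth from litters of CFTR+/- parents. The labels name 11 CFTR-/- pigs (CF), 6 CFTR+/- pigs (HET) and 6 wild-type pigs (WT), and the HET and WT libraries together form the non-CF group of 12. CFTR encodes the chloride channel that is lost in cystic fibrosis, and the disrupted allele is carried by every cell of the animal. Sex and litter were not given in the labels. Each library came from another pig.

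The libraries held 32901281 to 52952273 estimated counts, so that a limit of 3 counts lay between 0.0567 and 0.0912 CPM (counts scaled to a common library total), far below the level of every matrix gene. This limit covers counting error only. CFTR RNA itself did not fall with the number of disrupted alleles: it lay at 1.27 to 3.67 CPM under the label WT, at 9.41 to 17.5 CPM under HET and at 12.5 to 23.5 CPM under CF. The groups are therefore called by their labels throughout. Markers of kidney cortex were present in every library. The sum of 8 proximal tubule markers lay between 8505 and 18224 CPM, the 3 adrenal markers found summed to 6.59 to 11.6 CPM and the 3 skeletal muscle markers found to 3.30 to 7.01 CPM, with CYP17A1 and ACTA1 at 0 counts in some library. The pig numbers split the libraries into 13 earlier-numbered (pigs 1 to 6 and 12 to 18, of which 6 were labelled CF, 3 HET and 4 WT) and 10 later-numbered ones (pigs 7 to 11 and 19 to 23, with 5 CF, 3 HET and 2 WT). It showed as a gap on an ordination of these libraries, on an axis with 10.6% of their variance, and is not a batch named by the labels. Among the matrix genes 3 libraries stood apart. The library of CF pig 1 had the highest CPM of all 23 for 23 of the 43 genes, against 13.8% of the 21345 genes counted in every library (15 of 43 against 5.42% with library totals and 17 of 43 against 7.37% with upper-quartile scaling), and that of HET pig 19 had the lowest CPM for 20 of the 43, against 6.77%. The library of WT pig 17 had the highest CPM for 8 of the 43, against 3.91%, and for 3 of the 5 fibrillar genes.

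Levels between genes were compared per transcript length, as deposited TPM values (counts divided by transcript length and scaled to a fixed sum in each library), added up per gene. The most abundant matrix RNAs were those of COL4A1, the common type IV collagen chain, with a median of 389.8 TPM (range 298 to 572), and of COL3A1, the fibrillar collagen of reticular fibres, with a median of 386 TPM (277 to 686). SPARC, a collagen-binding glycoprotein of the matrix, followed at 377 TPM. The least abundant were POSTN at 11.8 TPM, COL14A1 at 9.76 TPM and COL4A6 at 7.14 TPM. In the order of median TPM all 42 neighbouring pairs had overlapping ranges over the libraries. Such ranges do not show whether a gene exceeded the next within each library. TPM values were low in absolute terms in this series, since a single noncoding RNA of 282 bases took 42.1% to 53.2% of the TPM of each library. Together the 43 genes made up 1.36% to 2.45% of the estimated counts of a library, with a median of 1.80%.

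**Figure D1:**
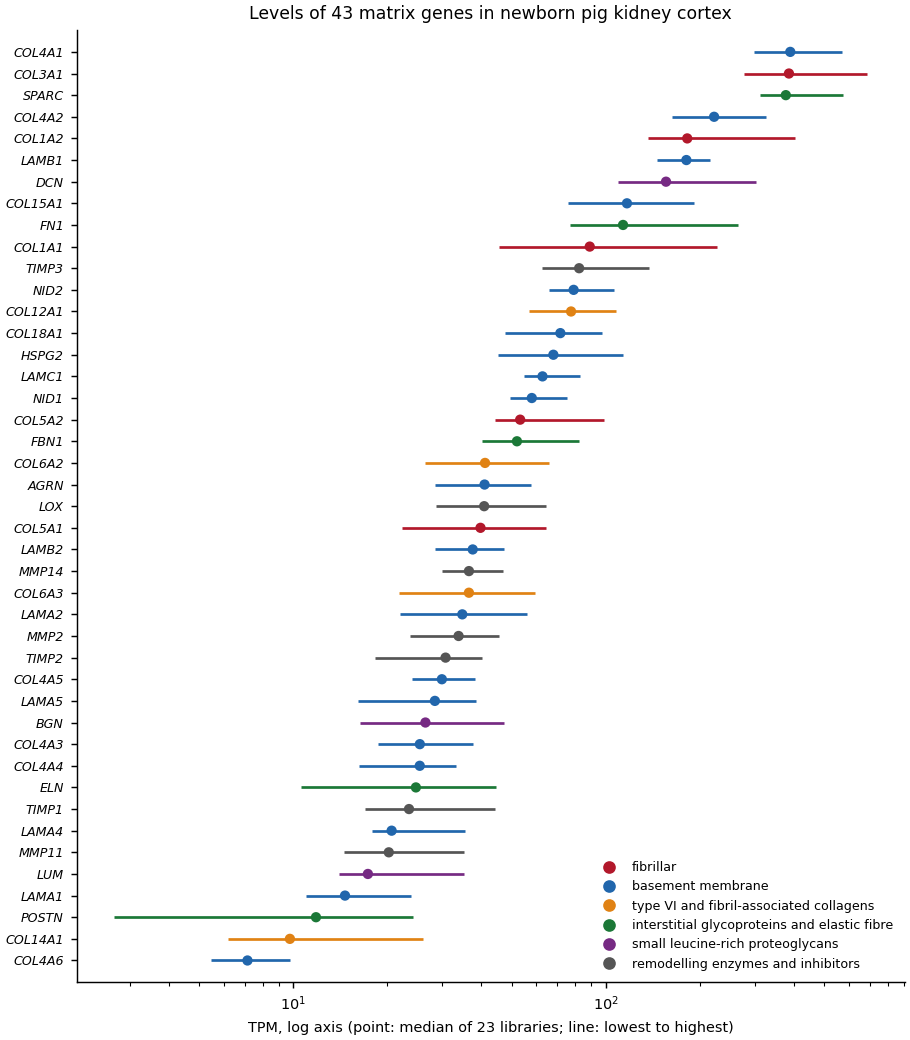
TPM of 43 matrix genes on a log axis, where the point is the median of 23 libraries, the line runs from the lowest to the highest library and colour gives the gene group. COL4A1 (median 389.8 TPM) and COL3A1 (386 TPM) lead and COL4A6 (7.14 TPM) is last, and each line overlaps that of its neighbour.

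The fibrillar group was led by COL3A1 and by the chains of type I collagen, COL1A2 and COL1A1. COL1A2 had a median of 182 TPM and COL1A1 of 88.9 TPM, and their ratio within a library ran from 1.38 to 3.20, with a median of 2.002. Type V collagen, which sits inside type I fibrils and limits their width, had medians of 53.3 TPM for COL5A2 and 39.8 TPM for COL5A1. COL1A1 (chr12:26379087-26397180, minus strand, Sscrofa11.1) was the most variable of the group. Its CPM, scaled by TMM to compare libraries, was 304, 678 and 1305 (lowest, median and highest) under WT, 239, 516 and 652 under HET and 297, 492 and 951 under CF. The 3 ranges overlapped, and the highest library was one labelled WT. COL3A1 was at 1221, 1772 and 2796 CPM under WT, 1125, 1587 and 2013 CPM under HET and 1219, 1892 and 2212 CPM under CF.

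The summed TPM of the 5 fibrillar genes was set against that of the 19 basement membrane genes. The ratio was 0.386, 0.520 and 0.865 under WT, 0.409, 0.484 and 0.514 under HET and 0.407, 0.515 and 0.562 under CF, so that basement membrane RNA exceeded fibrillar RNA in every library. The lowest and the highest ratio of the series both belonged to libraries labelled WT, pig 23 at 0.386 and pig 17 at 0.865, and all 3 ranges overlapped. The median ratio was 0.520 in the earlier-numbered libraries and 0.474 in the later-numbered ones. On the CPM scale, where long transcripts count for more, the median over all libraries was 0.373 in place of 0.508. The ratio was not tested, since it is a score over the listed genes. In whole tissue, fewer cells of a type and less RNA per cell cannot be told apart.

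Among the basement membrane genes, COL4A1 and COL4A2 encode the chains of the type IV network found in nearly all tissues. COL4A2 had a median of 222 TPM, and the ratio of COL4A1 to COL4A2 was nearly constant, from 1.49 to 1.95. COL4A3, COL4A4 and COL4A5 form the network of the mature glomerular basement membrane, and COL4A5 also pairs with COL4A6. Their medians were 25.4 TPM for COL4A3, 25.4 TPM for COL4A4 and 29.9 TPM for COL4A5. COL4A1 RNA exceeded COL4A3 RNA in every library, by 9.34-fold to 20.5-fold (median 15.7-fold).

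The 6 type IV genes lie in 3 head-to-head pairs on chromosomes 11, 15 and X. COL4A1 and the main transcript of COL4A2 are read in opposite directions from a spacer of 133 bases. It is shown because these genes had the highest correlation of the 10 chain pairs listed for testing. The spacer lies at chr11:76997410-76997542 of Sscrofa11.1, upstream of COL4A1 on the minus strand and of the main COL4A2 transcript on the plus strand, within the first intron of a minor COL4A2 transcript that starts farther upstream. It is printed on the plus strand of the genome, from COL4A1 on the left to COL4A2 on the right, with matches to CCAAT and GGGCGG on either strand in capitals:
COL4A1-COL4A2 spacer: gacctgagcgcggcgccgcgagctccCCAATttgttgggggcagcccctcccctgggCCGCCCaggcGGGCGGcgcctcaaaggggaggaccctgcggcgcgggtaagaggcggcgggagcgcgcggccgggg
The spacer was 78.9% G and C and held 18 CpG dinucleotides, 1 CCAAT, 2 GGGCGG (1 on each strand) and no TATAAA. Of 19557 windows of 133 bases upstream of genes, 21.5% held CCAAT on either strand, 39.1% GGGCGG and 5.26% TATAAA, and their median G and C content was 60.9%. COL4A3 and COL4A4 (chr15) overlap head to head and share 91 exon bases on opposite strands, and COL4A5 and COL4A6 (chrX) start 207899 bases apart.

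Laminins are trimers of an alpha, a beta and a gamma chain. LAMB1, a beta chain, was the most abundant laminin RNA, with a median of 181 TPM, and varied least of all 43 genes: 1070.0, 1109 and 1143 CPM under WT, 1092, 1133 and 1261 CPM under HET and 922, 1166 and 1476 CPM under CF. Its SD on the log2 CPM scale was 0.14. LAMB2, the beta chain that takes over in the mature glomerulus, had a median of 37.5 TPM, and LAMB1 exceeded it by 3.31-fold to 7.03-fold. LAMC1, the gamma chain, was at 62.8 TPM. The alpha chains were lower, with medians of 34.8 TPM for LAMA2, 28.4 TPM for LAMA5, 20.7 TPM for LAMA4 and 14.6 TPM for LAMA1. The linkers NID2 (79.0 TPM), NID1 (58.0 TPM), HSPG2, which encodes perlecan (68.0 TPM), and AGRN, a heparan sulfate proteoglycan of the glomerulus (41.0 TPM), lay between them. COL15A1 (117 TPM) and COL18A1 (71.6 TPM), the collagens of basement membrane zones, completed the group.

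Type VI collagen forms beaded filaments around cells, and its chains COL6A2 and COL6A3 were at 41.1 and 36.5 TPM. A gene annotated with the alpha 1 chain of type VI collagen as its product, LOC100623720, was found after its values had been seen and was not counted as a member. It lay at 145 to 416 CPM over the 23 libraries. COL12A1 and COL14A1, which attach to the surface of fibrils, differed in level, at 77.5 and 9.76 TPM. FN1, which encodes fibronectin, had a median of 114 TPM, FBN1, the fibrillin of elastic microfibrils, of 52.0 TPM and ELN, elastin, of 24.7 TPM. Of the small leucine-rich proteoglycans, which bind fibrils and regulate their spacing, DCN was at 156 TPM, BGN at 26.5 TPM and LUM at 17.3 TPM. The most variable gene was POSTN, periostin, whose highest library exceeded its lowest by 7.78-fold, followed by ELN with 5.70-fold and COL1A1 with 5.46-fold. LAMB1 differed by 1.60-fold.

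Among the remodelling genes, the inhibitor TIMP3 was the most abundant, with a median of 82.2 TPM, followed by LOX (40.8 TPM), the oxidase that starts collagen cross-linking. MMP14, a membrane-bound protease that activates MMP2, was at 36.5 TPM and MMP2, a gelatinase, at 33.8 TPM. TIMP2 was at 30.7 TPM, TIMP1 at 23.5 TPM and MMP11, a secreted protease also known as stromelysin 3, at 20.2 TPM.

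The first comparison asked which matrix genes differed between libraries labelled CF and non-CF. A gene was called where edgeR's quasi-likelihood test gave an adjusted p (Benjamini-Hochberg, over all genes tested) below 0.05. TIMP3 was the 1 gene called of 43, against 73 of the 20921 genes tested, or 0.349%. An unadjusted p under 0.05 was found for 8 of the 43 genes, 6 higher and 2 lower under CF, against 13.7% of all genes. No matrix gene had CF and non-CF values that did not overlap (0.00478% of all genes). The fold change was above 0 for 30 of the 43 genes, or for 25 of them with upper-quartile scaling, and its median on the log2 scale was 0.07, against -0.00 for all genes. Without CF pig 1 it was above 0 for 23 of the 43 genes, with a median of 0.01. Of the fibrillar genes 2 of 5 had values above 0, with a median of -0.02, but 4 of 5 without WT pig 17 (median 0.10) or WT pig 12 (median 0.05) and 1 of 5 without CF pig 1 (median -0.09) or HET pig 19 (median -0.07). Of the basement membrane genes 13 of 19 had values above 0, with a median of 0.07, and 10 of 19 without CF pig 1. The 95% interval stayed inside a log2 change of 0.5 in either direction for 36 of the 43 genes, and inside 1 for all 43.

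**Figure D2:**
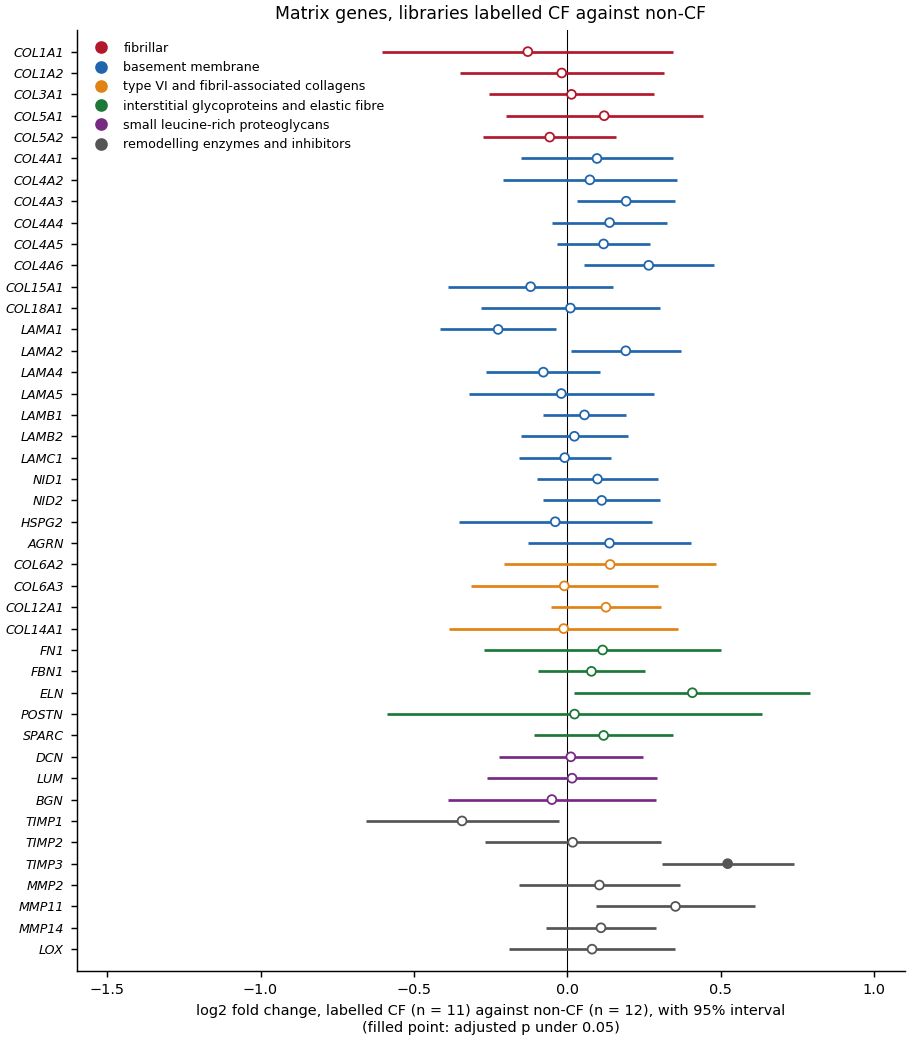
Log2 fold change of each matrix gene, labelled CF (11 libraries) against non-CF (12 libraries), with its 95% interval, where a filled point marks a gene called by edgeR. TIMP3 (0.52) is the only filled point, and the 5 fibrillar genes lie on both sides of 0, close to it.

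TIMP3 is the TIMP that binds to the matrix itself, and it also inhibits vascular endothelial growth factor signalling. Its CPM was 292, 318 and 401 under WT, 281, 307 and 346 under HET and 335, 408 and 709.6 under CF. All 11 CF libraries lay above the non-CF median, and the lower CF values overlapped with the upper WT and HET values. The mean was 458 ± 114 CPM (SD, n = 11) under CF and 319 ± 34.9 CPM (SD, n = 12) under non-CF, and edgeR's log2 fold change was 0.52 (SE 0.105, adjusted p = 0.0279). Without CF pig 1, its highest library, the log2 fold change was 0.44 (adjusted p = 0.0367). The call was lost on leaving out CF pig 6, CF pig 7, HET pig 14, HET pig 21, WT pig 16 or WT pig 18, with an adjusted p of at most 0.0678. By an exact Mann-Whitney U test (the study's methods name the Mann-Whitney U test) the adjusted p was 0.0527. Within the earlier-numbered libraries TIMP3 had a log2 fold change of 0.44 (adjusted p = 0.333) and within the later-numbered ones of 0.64 (adjusted p = 0.0190).

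TIMP3 has 1 annotated transcript (chr5:12185816-12242599, minus strand), which lies inside the span of SYN3 on the other strand without shared exon bases. The 250 bases upstream of its start, chr5:12242600-12242849 of Sscrofa11.1, are shown because it was the gene called in this comparison. They are printed on the minus strand, 5′ to 3′ towards TIMP3, with the same motifs in capitals:
TIMP3 upstream: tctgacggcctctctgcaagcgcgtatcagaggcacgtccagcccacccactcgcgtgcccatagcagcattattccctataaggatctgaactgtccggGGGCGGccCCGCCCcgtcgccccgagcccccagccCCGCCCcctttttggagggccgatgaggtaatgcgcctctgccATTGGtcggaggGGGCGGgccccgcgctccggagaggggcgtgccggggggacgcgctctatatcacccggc
The window was 69.2% G and C with 25 CpG dinucleotides. It held 1 CCAAT (on the other strand), 4 GGGCGG (2 on each strand) and no TATAAA. Of 19556 windows of 250 bases upstream of genes, 31.9% held CCAAT, 45.9% GGGCGG and 9.77% TATAAA on either strand, with a median G and C content of 57.6%.

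The other genes of small p did not pass the adjusted threshold. MMP11 was at 114 ± 32.96 CPM (SD, n = 11) under CF and 89.6 ± 12.03 CPM (SD, n = 12) under non-CF, with a log2 fold change of 0.35 (SE 0.127) and an adjusted p of 0.194 by edgeR. TIMP1, a soluble inhibitor that is induced in fibrosis, was at 13.04 ± 3.22 CPM under CF and 16.5 ± 5.22 CPM under non-CF (log2 fold change -0.34, SE 0.153, adjusted p = 0.313). ELN was at 87.0 ± 32.0 CPM under CF and 65.5 ± 20.6 CPM under non-CF (0.41, SE 0.187, adjusted p = 0.333). Without CF pig 1 the log2 fold change of ELN was 0.26, within the later-numbered libraries 0.72 and within the earlier-numbered ones 0.27. TIMP3 and TIMP1 thus had log2 fold changes of opposite sign, and the ratio of their TPM was 3.13 in the median WT library, 1.99 in HET and 5.44 in CF, with ranges of 1.51 to 4.02 under HET and 2.49 to 6.44 under CF that overlapped.

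The 3 chains of the glomerular type IV network were above 0 on the log2 scale, as was COL4A6, and none passed the test. COL4A6 had a log2 fold change of 0.27 (SE 0.103, adjusted p = 0.235). Of the glomerular chains COL4A3 had a log2 fold change of 0.19 (SE 0.0777, adjusted p = 0.254), COL4A4 of 0.14 (SE 0.0907, adjusted p = 0.538) and COL4A5 of 0.12 (SE 0.0738, adjusted p = 0.509). COL4A3 was at 169, 188 and 209.8 CPM under WT, 189, 208 and 236 CPM under HET and 163, 232 and 276 CPM under CF, so the CF range enclosed both others. The sum of 6 markers of podocytes, which express COL4A3, COL4A4 and COL4A5, lay at 813 to 1102 CPM under WT, 811 to 1113 CPM under HET and 739 to 1290 CPM under CF, and its part in these values was not tested. Of the laminins, LAMA1, the alpha chain of early nephron basement membranes, had a log2 fold change of -0.23 (SE 0.0921, adjusted p = 0.260) and LAMA2, the alpha chain of muscle and mesangium, of 0.19 (SE 0.0873, adjusted p = 0.330).

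For the most abundant genes the differences were small against their errors. COL1A1 had a log2 fold change of -0.13 (SE 0.231, adjusted p = 0.871), with a 95% interval from -0.60 to 0.35. COL3A1 was at 0.01 (SE 0.131, adjusted p = 0.980), from -0.26 to 0.28, and COL4A1 at 0.10 (SE 0.120, adjusted p = 0.789), from -0.15 to 0.34. FN1 was at 0.12 (SE 0.188, adjusted p = 0.854), or 0.017 without CF pig 1 and 0.25 without WT pig 17. LAMB1 was at 0.06 (SE 0.0654, adjusted p = 0.771), or 0.019 without CF pig 1. The sum of 6 stromal markers, the cells that make most fibrillar collagen, lay at 526.1 to 713 CPM under WT, 569 to 720 CPM under HET and 545 to 815 CPM under CF, with overlapping ranges. The log2 fold change was above 0 for 5 of 6 stromal markers (median 0.05) and 6 of 8 mesangial and smooth muscle markers (median 0.19). It was above 0 for 7 of 8 proximal tubule markers (median 0.11) and 4 of 6 podocyte markers (median 0.09). Other marker lists were mixed or mostly lower. Values above 0 were found for 3 of 7 endothelial (median -0.03), 2 of 6 erythroid (median -0.10) and 1 of 3 loop of Henle markers (median -0.09). The same held for 3 of 6 macrophage (median 0.05), 3 of 5 collecting duct (median 0.02) and 3 of 5 nephron progenitor markers (median 0.07). None of these markers was called. The summed mesangial and smooth muscle markers were at 555 to 848 CPM under WT, 527 to 639 CPM under HET and 492.7 to 1381 CPM under CF. Their part in the matrix values was not tested.

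**Figure D3:**
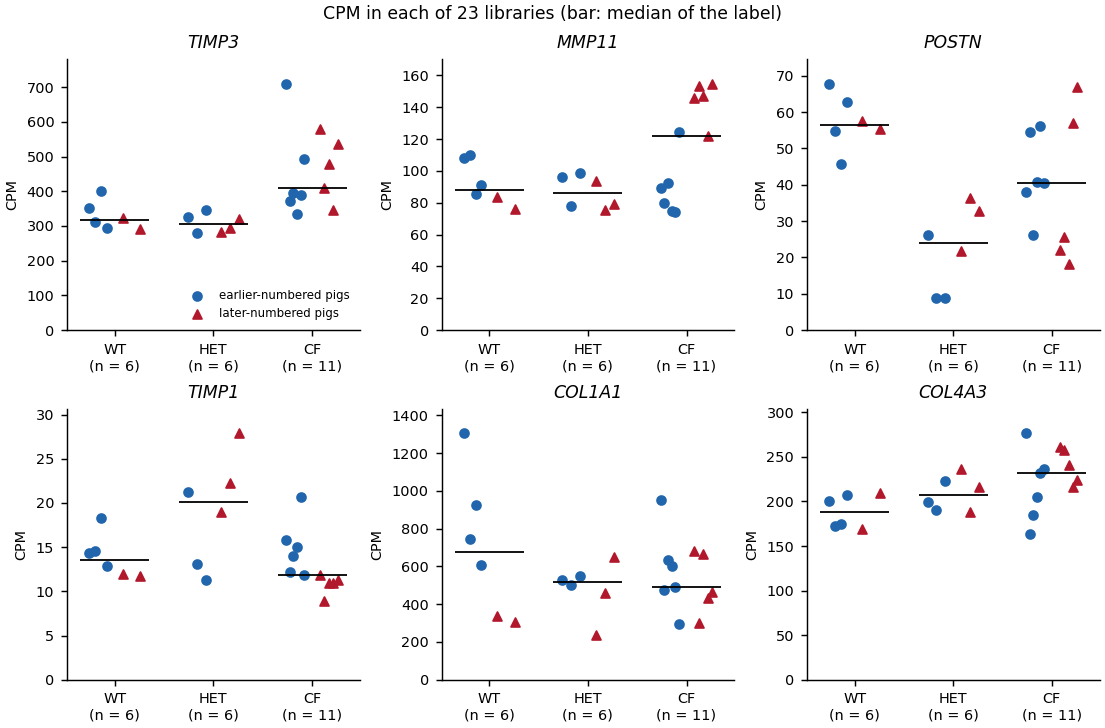
CPM of 6 matrix genes in each library by label, where circles are earlier-numbered pigs, triangles later-numbered pigs and the bar is the median of the label. TIMP3 is high under CF (335 to 709.6 CPM), MMP11 is high in the later-numbered CF libraries (122 to 155 CPM), and POSTN is the gene whose HET (8.72 to 36.4 CPM) and WT (45.8 to 67.8 CPM) ranges do not overlap.

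The 3 labels were then compared pairwise in a fit of all 23 libraries, and these comparisons share libraries with each other. For CF against WT no matrix gene was called by edgeR (0.349% of all genes were) and 6 had an unadjusted p under 0.05 (14.1% of all genes). By DESeq2 1 was called, TIMP3, with an adjusted p of 0.0203, but DESeq2 called 2.71% of all genes here, so 1 of 43 is no more than the background. In edgeR's fit TIMP3 had a log2 fold change of 0.48 (SE 0.131, adjusted p = 0.0915), and it passed the threshold on leaving out CF pig 4 (adjusted p = 0.0497). LAMA1 was at 127, 161 and 186 CPM under WT and 94, 123 and 158 CPM under CF, with all 11 CF libraries below the WT median (log2 fold change -0.33, SE 0.106, adjusted p = 0.146). COL4A3 had a log2 fold change of 0.27 (SE 0.0938, adjusted p = 0.185). All 5 fibrillar genes had values below 0, between -0.37 and -0.01, and 14 of 19 basement membrane genes had values above 0. Without WT pig 17 the fibrillar values ran from -0.28 to 0.07 (4 of 5 below 0), and without WT pig 12 from -0.10 to 0.12 (4 of 5 below 0). The basement membrane count was 10 without CF pig 1, 11 without WT pig 17 and 11 with upper-quartile normalization. All 8 proximal tubule markers (median 0.15) and 6 of 8 mesangial and smooth muscle markers (median 0.16) had values above 0. Fewer did so among endothelial (2 of 7, median -0.07), collecting duct (1 of 5, median -0.09) and nephron progenitor markers (1 of 5, median -0.04). The part of these markers in the matrix values was not tested. Over the 43 genes 24 had values above 0, and 17 without CF pig 1. None passed the test.

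For CF against HET no matrix gene was called by edgeR, as for all genes (0%), and 4 had an unadjusted p under 0.05 (9.89% of all genes). DESeq2 called 1 of the 43, TIMP3 (adjusted p = 0.0134), and 0.311% of all genes. TIMP3 had a log2 fold change of 0.57 in edgeR's fit (SE 0.131, adjusted p = 0.179). TIMP1 was at -0.55 (SE 0.168, adjusted p = 0.298) and POSTN at 0.85 (SE 0.294, adjusted p = 0.357). All 5 fibrillar genes had values above 0 here (4 without HET pig 19), as did 38 of the 43 genes, or 27 without CF pig 1 and 29 without HET pig 19, against 51.4% of all genes. Of the markers, 7 of 8 for mesangium and smooth muscle had values above 0 (median 0.22), 5 of 6 for podocytes (median 0.06) and 3 of 6 for stroma (median 0.02), while all 6 erythroid markers had values below 0 (median -0.29). Their part in the matrix values was not tested.

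For HET against WT no matrix gene was called by edgeR or DESeq2 (0.00478% of all genes by edgeR and 0.158% by DESeq2) and 2 had an unadjusted p under 0.05 by edgeR (7.99% of all genes). The latter count was 13 of 43 when log2 CPM of EIF1AY (Y-linked) entered the fit, 6 without WT pig 23, 5 without WT pig 22, 1 without HET pig 20 and 5 with upper-quartile normalization. POSTN, a matricellular protein of developing and injured connective tissue (chr11:13225183-13258973, minus strand), was at 45.8, 56.6 and 67.8 CPM under WT and at 8.72, 23.9 and 36.4 CPM under HET. The groups did not overlap, which held for 1 matrix gene and for 0.703% of all genes. CF lay across both, at 18.3, 40.5 and 66.8 CPM. For POSTN edgeR's log2 fold change of HET against WT was -1.35 (SE 0.328, adjusted p = 0.281), and the adjusted p stayed between 0.253 and 0.486 with each library left out. Within HET, POSTN was at 8.72, 8.86 and 26.1 CPM in the earlier-numbered and at 21.7, 32.9 and 36.4 CPM in the later-numbered libraries. TIMP1 was at 11.7, 13.6 and 18.2 CPM under WT and 11.3, 20.1 and 27.9 CPM under HET (log2 fold change 0.46, SE 0.194, adjusted p = 0.597). FN1 had a log2 fold change of -0.49 (SE 0.247, adjusted p = 0.641), or of -0.27 without WT pig 17. All 5 fibrillar genes had values below 0 (median -0.26), also without WT pig 17 (median -0.21), WT pig 12 (median -0.14) or HET pig 19 (median -0.15), while 10 of 19 basement membrane genes were above 0. Of the markers, 6 of 8 for mesangium and smooth muscle had values below 0 (median -0.15), while 7 of 8 for proximal tubule (median 0.21) and 4 of 6 erythroid ones (median 0.54) had values above 0, and their part was not tested.

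The difference between CF and non-CF was also compared between the earlier-numbered and the later-numbered libraries, by the interaction term in edgeR. The split was found on these data, so p-values that use it, here and elsewhere, do not allow for that choice. MMP11 (chr14:49907684-49917494, minus strand) was the 1 matrix gene called, against 4 genes in all (0.0191%), and 3 matrix genes had an unadjusted p under 0.05 (10.1% of all genes). The latter count was 12 without CF pig 1, 7 without HET pig 21 and 5 without CF pig 8, and the number of genes called in all was 91 without CF pig 1. MMP11 was at 122 to 155 CPM (median 147) in the 5 later-numbered CF libraries, above every other library except that of CF pig 6, and at 74.3 to 124 CPM (median 84.4) in the 6 earlier-numbered ones. The non-CF libraries were at 75.4 to 93.4 CPM when later-numbered and at 77.7 to 109.8 CPM when earlier-numbered. The interaction was 0.92 on the log2 scale (SE 0.161, adjusted p = 0.0418). Within the later-numbered libraries the log2 fold change of CF against non-CF was 0.83 (SE 0.0870, adjusted p = 0.00132), and within the earlier-numbered ones it was -0.09 (SE 0.122, adjusted p = 0.870). The interaction was called with DESeq2 (adjusted p = 2.37e-04, where 0.631% of all genes were called), with another normalization and with another filter, but with only 8 of the 23 libraries left out in turn, and its adjusted p then ran from 0.000611 to 0.0974. It was lost without CF pig 2, 3, 4, 5, 7, 9 or 11, HET pig 13, 15, 20 or 21, or WT pig 12, 16, 18 or 23, while its size stayed between 0.88 and 1.04.

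MMP11 is annotated with 6 transcripts of 2246 to 7545 bases, and the 3 longest held most of its counts. Those summed to 111 to 142 CPM in the later-numbered CF libraries, 56.4 to 112 CPM in the earlier-numbered CF libraries, 59.9 to 88.6 CPM in later-numbered non-CF and 67.0 to 95.7 CPM in earlier-numbered non-CF libraries. The 3 shorter ones were at 11.0 to 20.2, 9.06 to 25.4, 4.75 to 17.9 and 7.16 to 24.1 CPM in the same order, with ranges that all overlapped. The next genes of the interaction did not pass the test. TIMP1 had an interaction of -0.77 (SE 0.276, adjusted p = 0.314), and in the later-numbered libraries it was at 8.86 to 11.9 CPM under CF and 11.7 to 27.9 CPM under non-CF. COL6A3 had an interaction of 0.53 (SE 0.253, adjusted p = 0.485).

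The matrix genes also differed between the number blocks themselves. Because the split was found on these data, this is a description with no test. Mean log2 CPM was lower in the later-numbered libraries for 39 of the 43 genes, with a median difference of -0.21, while 49.8% of the 21345 genes counted in every library were lower and their median difference was 0.00. The number was 39 under each of 3 other scalings and stayed between 37 and 40 when any single library was omitted. All 5 fibrillar genes were lower (median -0.37), as were 17 of 19 basement membrane genes (median -0.20), all 4 type VI and fibril-associated collagens (median -0.35) and all 3 proteoglycans (median -0.29). The difference was present under both labels: 35 of the genes were lower within CF (median -0.16) and 39 within non-CF (median -0.27).

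COL1A1 had the largest difference, -0.54. By label it was -1.42 under WT, -0.34 under HET and -0.15 under CF. In the libraries labelled WT its CPM was 609.6 to 1305 in 4 earlier-numbered and 304 to 339.5 in 2 later-numbered pigs. FN1 differed by -0.52, ELN by -0.49 and HSPG2 by -0.45. The 4 exceptions were LAMB1 (0.06), COL4A3 (0.12), POSTN (0.03) and MMP11 (0.24). Markers of other cells moved with the blocks. Of 8 mesangial and smooth muscle markers 7 were lower in the later-numbered libraries (median -0.20), of 7 endothelial markers 5 (median -0.17), of 6 stromal markers 4 (median -0.07), of 6 podocyte markers 2 (median 0.08) and of 8 proximal tubule markers 1 (median 0.28). Their part in the matrix values was not tested.

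**Figure D4:**
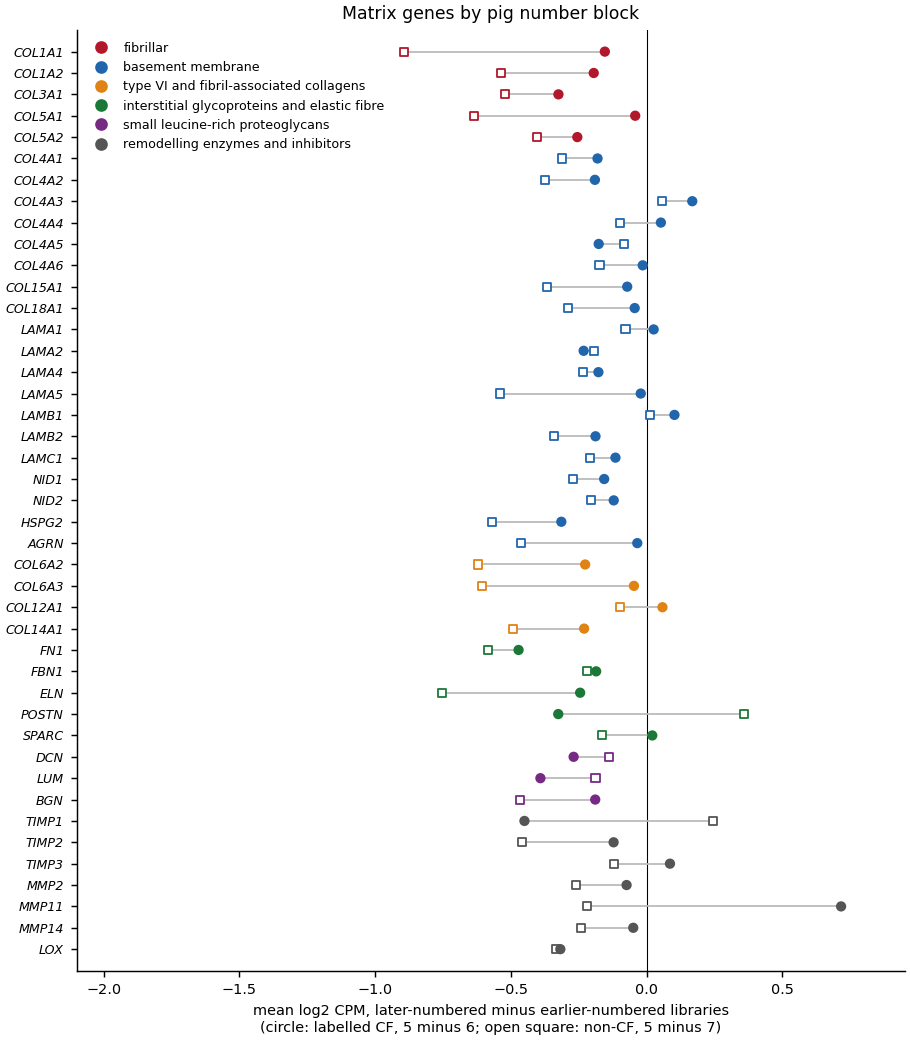
Mean log2 CPM of the later-numbered minus the earlier-numbered libraries for each matrix gene, where circles are libraries labelled CF (5 minus 6) and open squares non-CF (5 minus 7). Most points lie below 0 under both labels, the 5 fibrillar genes without exception, while MMP11 is above 0 under CF (0.72) and below 0 under non-CF (-0.22).

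Pairs of chains, most of which assemble into one molecule, were compared over the 23 libraries by Pearson's r of log2 CPM. Spearman's rho and permutation p-values adjusted over 10 pairs are given beside it. COL4A1 and COL4A2 had the highest r, 0.95 (rho 0.93), and COL1A1 and COL1A2 followed with 0.92 (rho 0.95). Both had an adjusted permutation p of 2e-05, which rests on the smallest p that the permutations can give. Within the number blocks r was 0.94 for the COL4A1 pair in both, and 0.87 (earlier-numbered) and 0.94 (later-numbered) for the type I pair. COL4A3 and COL4A4 had an r of 0.82 (rho 0.77, 0.73 without the 2 libraries farthest from the median, and 0.91 and 0.81 within the blocks). These genes share exon bases, and whether strand was used in counting is not given in the sources used here, so reads there may not be told apart. The same limit holds for 7 of the 43 genes in all. Among them are HSPG2, with 621 exon bases shared with LDLRAD2, and LAMB1, with 612 shared with LOC100623096. COL1A1 and COL3A1, which belong to different fibrillar collagens, had an r of 0.85 (rho 0.81). COL4A5 and COL4A6 had an r of 0.82 (rho 0.70), and COL5A1 and COL5A2 of 0.66 (rho 0.70, adjusted permutation p = 0.00109). Within the earlier-numbered libraries the type V pair had an r of 0.50 (adjusted permutation p = 0.113), and within the later-numbered ones of 0.71 (adjusted permutation p = 0.0261).

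Across the networks and among the laminins, where LAMB1 and LAMC1 are chains of one trimer, the picture was mixed. COL1A1 and COL4A1 varied together, with an r of 0.75 (rho 0.75, adjusted permutation p = 5e-05), 0.55 within the earlier-numbered (adjusted permutation p = 0.0744) and 0.89 within the later-numbered libraries. COL4A1 and COL4A3, from the 2 type IV networks, had an r of 0.13 (rho 0.01, adjusted permutation p = 0.603). For the laminins, LAMB1 and LAMC1 had an r of 0.45 (rho 0.31, adjusted permutation p = 0.0405), against 0.13 without CF pig 1 and CF pig 3, 0.76 within the earlier-numbered and 0.46 within the later-numbered libraries, and 0.72 after the means of label and block were removed. The size of this relation therefore differed widely with the libraries used. LAMB1 and LAMB2 had an r of -0.08 (rho -0.08, adjusted permutation p = 0.729). LOC100623720 and COL6A2, a pair added after the values had been seen, had an r of 0.97.

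Over all pairs of genes, the median r was 0.88 within the fibrillar group (10 pairs, 0.66 to 0.94), 0.50 within the basement membrane group (171 pairs, -0.26 to 0.95) and 0.55 between them (95 pairs, -0.22 to 0.89). The genes closest to the mean of the 5 fibrillar genes outside their group were COL6A3 (r = 0.94), HSPG2 (0.88) and TIMP2 (0.85), and the farthest were LAMA2 (-0.02), MMP11 (-0.04) and COL4A3 (-0.09). The lowest r of any pair of the 43 genes was that of TIMP1 and MMP11, -0.59. All these values share the same 23 libraries, their depth and the number blocks, and are given as a description. The summed mesangial and smooth muscle markers had an r of 0.75 with the fibrillar mean, the stromal markers of 0.62 and the proximal tubule markers of -0.10.

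**Figure D5:**
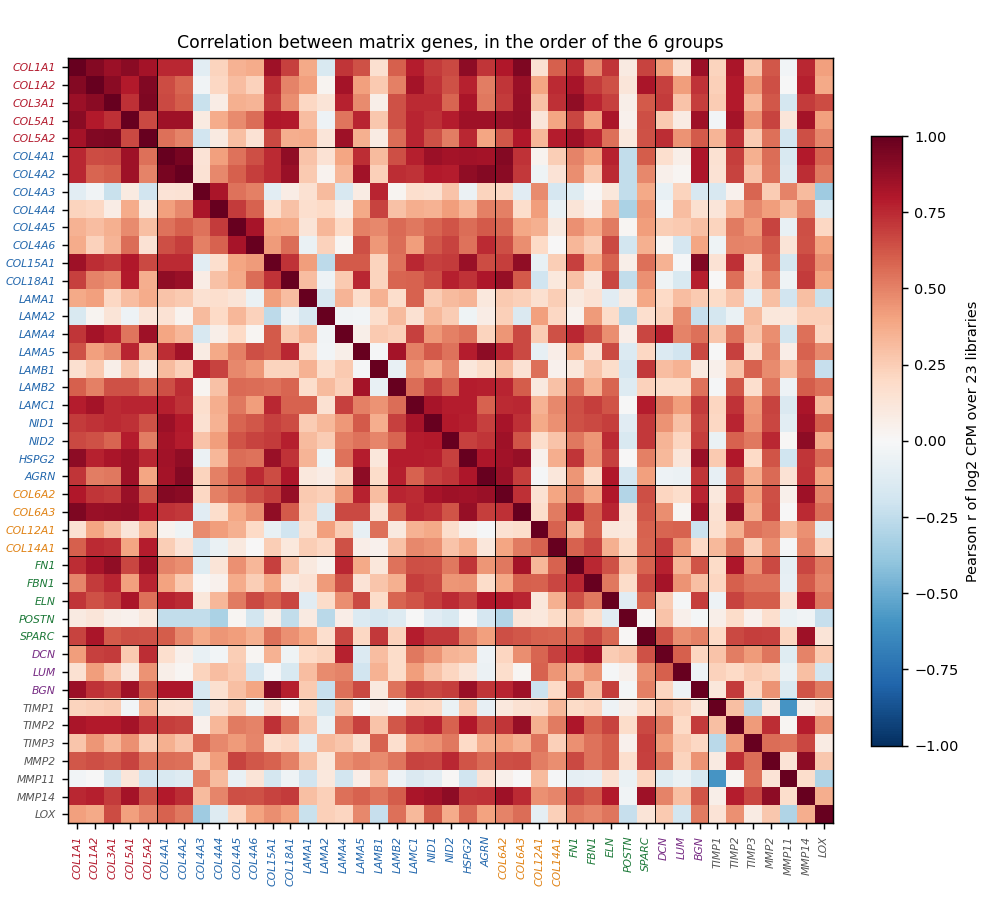
Pearson's r of log2 CPM over 23 libraries between each pair of the 43 matrix genes, in the order of the 6 groups, with red for positive and blue for negative r. The fibrillar block in the upper left is uniformly high (0.66 to 0.94), while the rows of POSTN and LAMA2 are pale, with no r above 0.29 and 0.48.

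Beyond the 43 genes, a wider list of 105 matrix genes was examined, of which 103 were found. For CF against non-CF 24 had an unadjusted p under 0.05, 14 higher and 10 lower under CF, where 13.7% of all genes had one. MFAP2, a component of elastic microfibrils, was at 39.5, 41.3 and 46.1 CPM under WT, 34.4, 37.6 and 43.6 CPM under HET and 38.4, 55.5 and 90.7 CPM under CF, with 10 of 11 CF libraries above the non-CF median (log2 fold change 0.55, SE 0.115, adjusted p = 0.0360 by edgeR, past the threshold). With each library left out in turn MFAP2 was called in 13 of 23 fits. MFAP2 was not called within the earlier-numbered libraries (log2 fold change 0.38, adjusted p = 0.5002), by the exact Mann-Whitney U test (adjusted p = 0.117), by limma-voom (adjusted p = 0.0600), or with HET alone (adjusted p = 0.304) or WT alone (adjusted p = 0.164) as control. Of 16 genes for collagen processing 11 had values below 0 (median log2 fold change -0.18) and 9 had an unadjusted p under 0.05, 7 of them lower under CF, but none passed the adjusted threshold. Values above 0 were found for 10 of 13 other collagens (median 0.10), 18 of 23 other glycoproteins (median 0.10), 9 of 16 laminins and basement membrane partners (median 0.05), 10 of 17 proteases and inhibitors (median 0.02), 3 of 5 proteoglycans (median 0.07) and 6 of 13 matrix receptors (median -0.02). In the pairwise comparisons and the interaction none of the 103 was called by edgeR.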

How the data were processed

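Kidney cortex RNA of 23 newborn pigs had been sequenced as stranded total RNA after ribosomal depletion. The authors quantified the reads with kallisto against Sscrofa11.1 and deposited an estimated count and a TPM value for each of 77689 transcripts with RefSeq identifiers. The deposited estimated counts are not normalized. The TPM values the authors deposited take transcript length into account and have the same total in every library. Whether strand was used in counting is not given in the sources used here.

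Estimated counts were summed per gene symbol and rounded, and TPM values were summed per symbol. Groups came from the labels. Counts were tested with edgeR 4.0.16 on R 4.3.3 (TMM normalization, filterByExpr, quasi-likelihood test, Benjamini-Hochberg adjustment over 20921 genes, threshold 0.05): CF against non-CF, 3 labels in one fit, and the interaction of CF with number block. The Mann-Whitney U test, which the authors name, was run in its exact form with adjusted p-values as an alternative, as were DESeq2 1.42.0, limma-voom (limma 3.58.1), other normalizations and filters, number block or the Y-linked EIF1AY as a covariate, other control groups and each library left out in turn. Log2 CPM used a prior count of 2 and log2 TPM an offset of 0.1. Correlations used 100000 permutations, two-sided, in Python 3.11.15 with numpy 2.4.6, pandas 2.3.3 and scipy 1.17.1. The tests were also run on simulated counts with known changes. These held no number blocks, litters or sexes, so the run bears on no result given here. Genome windows were read from the Sscrofa11.1 assembly and its RefSeq annotation, and figures were drawn with matplotlib 3.10.9. The libraries held 32901281 to 52952273 estimated counts, and p-values measure the spread between pigs.

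The 44 genes, the lists, the pairs and the number blocks were chosen with earlier results of these data known. All members are named with a level. For CF against non-CF, values are given for members under the threshold, the 10 of smallest p, and COL1A1, COL3A1, COL4A1, COL4A3, LAMB1 and FN1. For the other comparisons they are given for members under the threshold and the 3 of smallest p, and for other matrix genes for up to 5 under the threshold. Other genes with values were chosen after the values were seen. The result of 1 gene of the wider matrix list is not reported here.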

Additional observations from a re-analysis of the deposited data

Results flagged for a closer look

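Within the labels WT and HET, each of 6 libraries, the highest and the lowest library of each gene were compared with the nearest other library by Dixon's ratio. Of 86 groups 5 passed the 95% limit of 0.625, as did 5.40% of the 42690 groups formed in the same way from all genes counted in every library. Chance alone gives about 1 in 20 groups, so the count for the matrix genes is near the background and the values below are listed without further reading. In the library of WT pig 17, COL14A1 was at 156 CPM against 39.1 to 79.2 CPM in the other WT libraries, DCN at 359 CPM against 167 to 234 CPM and FBN1 at 683 CPM against 386 to 469 CPM. LAMA2 was at 255 CPM in HET pig 21 against 358 to 408 CPM in the other HET libraries. LUM was at 44.04 CPM in HET pig 19 against 27.6 to 30.8 CPM.

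The log2 fold change of MMP11 between CF and non-CF differed between the number blocks, by an interaction of 0.92 (edgeR's quasi-likelihood test, adjusted p = 0.0418). The split was found on these data, and the call was lost in 15 of 23 fits with a single library left out. The cause was not tested.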

How the results depend on the processing

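For CF against non-CF the 1 matrix gene called (TIMP3) became 0 with HET alone or WT alone as control, in the earlier-numbered libraries alone and by the exact Mann-Whitney U test, and 2 (TIMP3 and MMP11) in the later-numbered libraries alone. It stayed 1 under the 8 other alternatives and was 0 to 1 with single libraries omitted. For CF against WT and CF against HET the count of 0 became 1 (TIMP3) by DESeq2, and for CF against WT it was 0 to 1 with single libraries omitted. The count of 1 for the interaction (MMP11) was 0 to 1. For HET against WT it stayed 0 under every alternative run. Calls over all genes varied more: 73 for CF against non-CF by edgeR, against 468 by DESeq2, 150 with at least 1 CPM in 6 libraries, 148 with number block as a term, 473 in the later-numbered and 0 in the earlier-numbered libraries alone. With single libraries omitted these 73 ran from 17 (without HET pig 21) to 203 (without CF pig 4), and the 73 for CF against WT from 20 (without WT pig 12) to 203 (without CF pig 4), so the share of all genes called is itself uncertain. In the pairwise comparisons DESeq2 called 566 genes between CF and WT (edgeR 73), 65 between CF and HET (edgeR 0) and 33 between HET and WT (edgeR 1), and 132 for the interaction (edgeR 4). Between CF and WT edgeR called 140 genes with at least 1 CPM in 6 libraries, 139 with upper-quartile normalization and 186 with number block as a term.

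Of the genes whose log2 fold change is given for CF against non-CF, 5 turned sign under some alternatives. COL1A1 was at 0.16 with HET alone as control, 0.36 in the later-numbered libraries, and -0.24 to 0.038 with single libraries omitted (0.038 without WT pig 12). COL3A1 was at -0.087 with WT alone, -0.045 in the earlier-numbered libraries, -0.011 with upper-quartile normalization and -0.031 to 0.097 with single libraries omitted. COL4A1 ran from -0.00199 (without CF pig 1) to 0.14 with single libraries omitted and from 0.050 to 0.17 under the other alternatives, FN1 was at -0.11 with WT alone and MMP11, 0.35 over all libraries, at -0.094 in the earlier-numbered ones. Of the correlations, COL4A1 with COL4A3 was at -0.14 on TPM and -0.075 without the 2 farthest libraries. LAMB1 with LAMB2 was at 0.053 on TPM, 0.063 as residuals, 0.036 in the earlier-numbered and 0.16 in the later-numbered libraries. The ratio of fibrillar to basement membrane RNA was 0.373 on CPM in place of 0.508 on TPM. The causes were not tested.

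No paired analysis was possible because each pig has a number of its own, which no other label shares. Sex and litter are not in the labels, and neither entered a test as a label.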
